A study of Mus musculus with 12 samples.

Results

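In RNA-Seq of 12 libraries of primary mouse hepatocytes, 462 of the 55450 genes measured were close to silent in the GFP group and present in the OE group. The members were chosen by a sum of expected counts over the 3 GFP libraries of at most 3 and a mean of at least 1 TPM over the 3 OE libraries, where expected counts are the estimated reads of a gene and TPM is the transcript level scaled for gene length and library size. Stefin A genes, S100a8 and S100a9, named neutrophil granule genes and families of drug metabolism and acyl-CoA thioesterases were left out by symbol, which removed 8 genes that met both limits: Stfa1, Stfa2l1, Stfa3, BC100530, S100a8, S100a9, Ngp and Sult6b2. Because the GFP counts and the OE TPM chose the members, their values in those libraries are given as a description, without a test.

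OE hepatocytes received an adenovirus carrying mouse Cebpa (Ad-m-Cebpa) and GFP hepatocytes received an adenovirus carrying green fluorescent protein (Ad-GFP). KO hepatocytes carried the genotype Cebpa{delta}Alb, in which Cre recombinase expressed from the albumin promoter removes the floxed gene, and WT hepatocytes were Cebpafl/fl and kept Cebpa. Each group had 3 libraries, and the labels call them biological replicates without saying whether they came from separate mice or cultures, so that spreads and p values may be technical. The study used male mice. The labels give neither an age nor an exposure time, and the study states both for other hepatocyte assays without tying them to these libraries. OE and GFP hepatocytes share exposure to an adenovirus, which the KO and WT labels do not list, and the 2 experiments share no library.

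C/EBPα, the protein made from Cebpa, is a leucine zipper transcription factor of adult hepatocytes that holds metabolic genes active. The same factor starts the granulocyte programme in blood progenitors, can convert other blood cells to macrophages when forced, and acts in differentiating epidermis and fat. A gene with no reads in a control culture gives an almost blank background for reading a response.

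Library totals lay between 20160081 and 23304230 counts. Cebpa stood at 9924, 10238 and 10733 TPM in the OE libraries, against 29.3, 31.3 and 33.7 TPM in the GFP libraries, and at 0.54, 0.14 and 0.09 TPM in the KO libraries, against 175, 123 and 165 TPM in the WT libraries, so that every library matched its label. The 8 hepatocyte markers summed to 10808 to 11109 TPM in OE, 19511 to 20109 TPM in GFP, 88371 to 98220 TPM in KO and 76835 to 79739 TPM in WT, and none was at 0. These are bulk libraries, in which fewer cells of a type and less RNA per cell cannot be told apart.

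The 462 members rested on very unequal numbers of reads. A mean of at least 10 reads per OE library was reached by 292 of them (63.2%), with a median of 117 counts summed over the OE libraries and a median level of 2.42 TPM. The other 170 had a median of 4.13 summed counts, and 75 members had no more than 3 counts in OE, the same limit that called them silent in GFP. In 18 members the OE libraries together held no more counts than the GFP libraries, and in 11 the mean GFP TPM was at or above the mean OE TPM. A short gene needs only a fraction of a read to pass 1 TPM, and the rule as written therefore takes in genes that were not higher in OE.

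The second identifier of Ddit3, a stress-induced transcription factor, shows how such a member arises. This 105-base entry stood at 0, 0 and 36.5 TPM in OE, against 25.5, 125 and 0 TPM in GFP, from 0.54 and 2.75 summed counts. The main Ddit3 identifier is not a member. Mir8097, whose locus lies within Rnf19a on the same strand, passed at a mean of 138 TPM from 17.2 counts, with 161, 212 and 41.6 TPM in the OE libraries.

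Gene type separated the read-poor members from the rest. Of the 231 protein-coding members 217 had a mean of 10 reads or more, against 51 of 96 long non-coding genes, 17 of 65 pseudogenes, 7 of 16 unclassified transcripts and 0 of 54 short RNA genes (small nuclear, small nucleolar, ribosomal, micro and other short RNAs). Of these 54 short RNA genes 36 lay within or across another gene on the same strand that had at least 1 TPM in OE, as did 52 of the 170 members under 10 reads and 8 of the 292 above it. Whether reads of the host genes were counted for the short genes was not tested. The libraries were made from poly(A) RNA, which most of these short RNA classes lack.

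**Figure D1:**
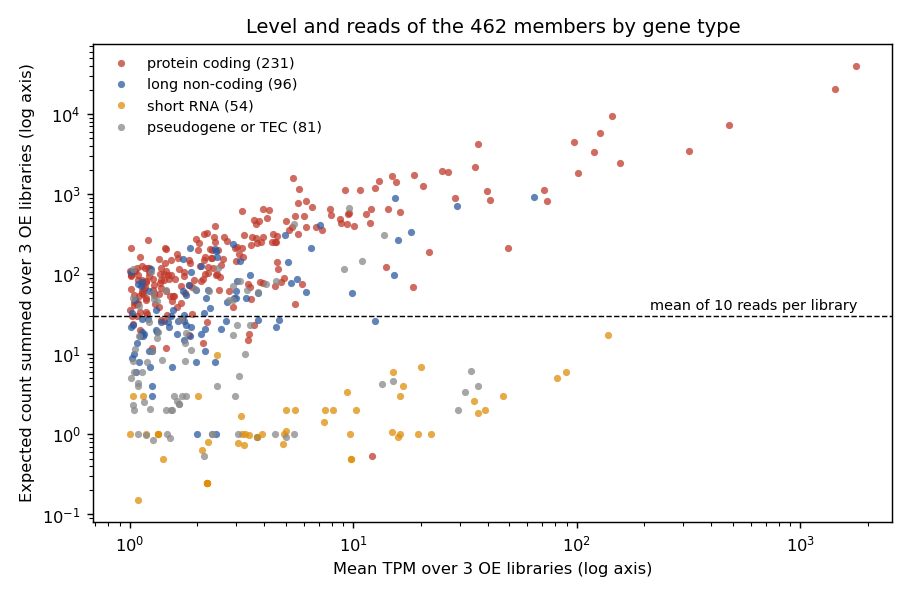
Expected counts summed over the 3 OE libraries (vertical, log axis) against the mean TPM over the same libraries (horizontal, log axis) for each of the 462 members, coloured by gene type. The dashed line marks a mean of 10 reads per library, and all 54 short RNA genes lie under it while 217 of 231 protein-coding genes lie on or above it.

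The 292 members with 10 reads or more were close to an on and off pattern. Their summed level was 6287, 6217 and 6345 TPM in OE, against 6.48, 5.93 and 5.72 TPM in GFP, and it was 25.4, 19.3 and 17.7 TPM in KO and 28.4, 30.1 and 24.9 TPM in WT. They took 0.272%, 0.266% and 0.272% of all counts in the OE libraries. In GFP 143 of them had a summed count of 0. The lowest OE count lay above the highest GFP count in all 292, which the limits on GFP counts and OE reads all but set in advance. Of the 14889 genes tested between OE and GFP, 47.1% had no such overlap. edgeR tested 271 members in OE against GFP and called all 271 higher, where it called 43.9% of all genes tested higher. Nothing is read from either count, since the rule used this contrast and a member passes the filter on low counts only through OE.

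Levels among the 292 spread widely, with 9 at 100 TPM or more, 35 at 10 to 100, 34 at 5 to 10, 95 at 2 to 5 and 119 at 1 to 2 TPM. The OE libraries differed little from each other, with a median coefficient of variation (SD over mean) of 16.0% across these members. Of the 292, 229 were above 1 TPM in each of the 3 OE libraries. Reads divided between near-identical genes, seen where expected counts are not whole, touched 35 of them, and their levels are uncertain to that extent.

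Retnla encodes resistin-like alpha, a secreted protein known from alternatively activated macrophages and from lung and fat. Retnla (ENSMUSG00000061100.4, chromosome 16, 48842551 to 48844461, plus strand, GRCm38) stood at 516, 484 and 445 TPM in OE, a mean of 482 ± 35.4 TPM (SD, n = 3), and was listed at 0 in the 3 GFP, 3 KO and 3 WT libraries. Scaled to library totals, this is at least 2443-fold higher in OE than in GFP, taking 3 counts over the GFP group as the floor. Of the other resistin family genes, Retn, Retnlb and Retnlg stood at 0.0733, 0.113 and 0.127 TPM in OE and are not members.

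Crisp1 and Crisp3 are cysteine-rich secretory proteins, known from the epididymis, where CRISP1 coats sperm, and from salivary glands. Crisp1 stood at 131, 119 and 129 TPM in OE and Crisp3 at 101, 89.1 and 102 TPM, and neither had a read in any GFP, KO or WT library. Both were high in the same libraries and lowest in OE2. The 2 genes lie next to each other on the minus strand of chromosome 17 (40221777 to 40242288 for Crisp3 and 40293758 to 40319207 for Crisp1). Of the other genes of the family Crisp2 reached 0.92 TPM and Crisp4 was listed at 0 in OE. Of 9 epididymis and male germ line markers 8 were at 0 in all 3 OE libraries, and their sum was 0.33 to 0.45 TPM in OE and 0.05 to 0.16 TPM in GFP.

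Lce3f encodes a late cornified envelope protein, a structural protein of the outer skin layer, and Slfn1 encodes a Schlafen protein known from thymocytes and T cells. Lce3f stood at 158, 166 and 145 TPM in OE and at 0 in the other 9 libraries, at least 814-fold higher than in GFP, with reads that are shared with other Lce3 genes. Slfn1 stood at 35.5, 35.8 and 34.2 TPM in OE and at 0 in GFP, at least 721-fold higher, and had 1 read in all of KO and WT. The related Slfn2 stood at 78.4 TPM in OE and 0.223 TPM in GFP and missed the GFP limit, while Slfn9 stood at 13.2 TPM in OE and 50.3 TPM in GFP. Of 12 T, NK and B lymphocyte markers 10 were at 0 in all OE libraries, and their sum was 0.07 to 0.13 TPM in OE and 0.36 to 0.93 TPM in GFP.

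**Figure D2:**
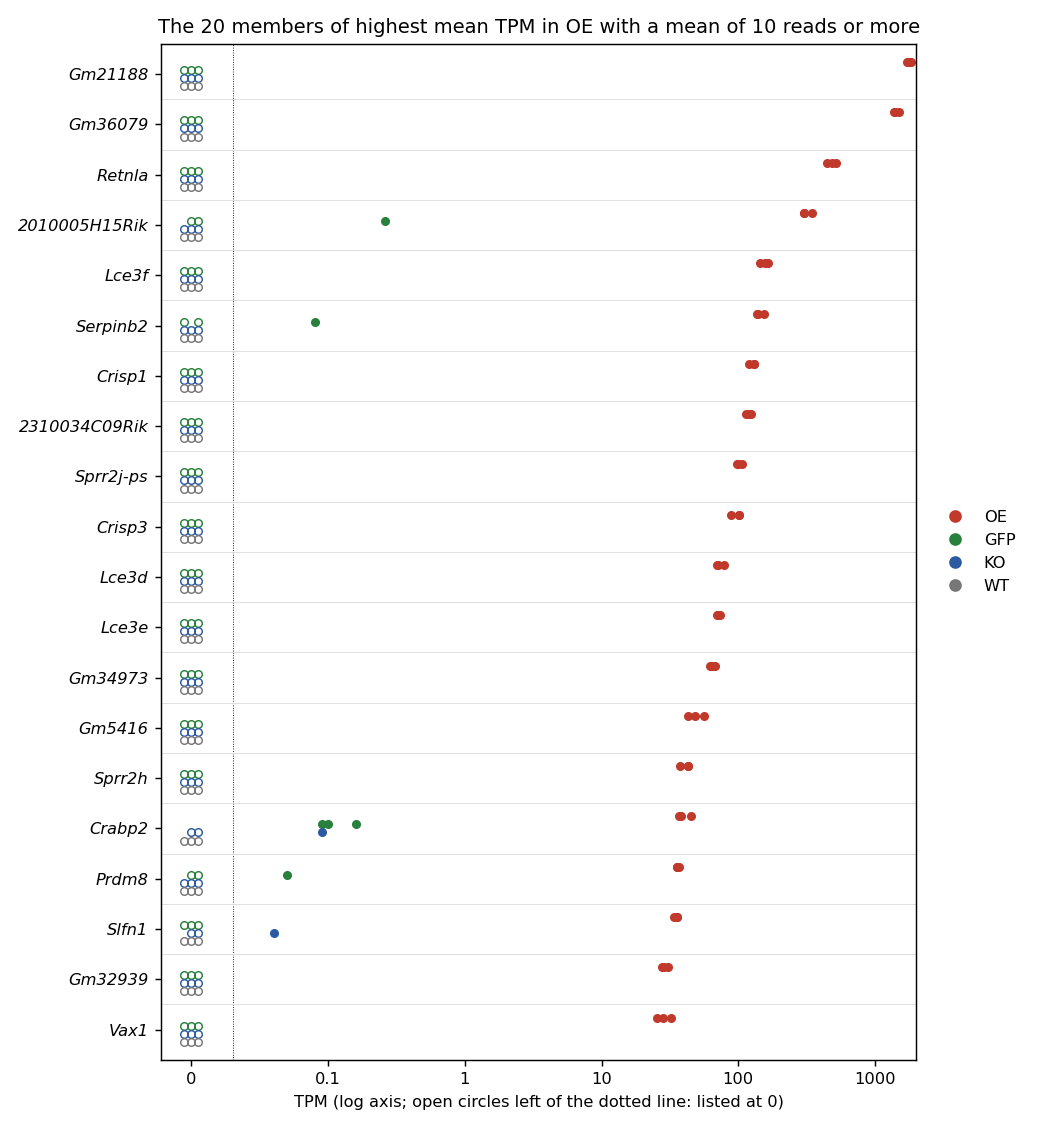
Level in TPM (horizontal, log axis) of the 20 members with the highest mean in OE among those with a mean of 10 reads or more (vertical), where each point is 1 library of OE, GFP, KO or WT (3 each) and open circles stand for libraries in which the gene is listed at 0. The OE points lie between 25.7 TPM for Vax1 and 1828 TPM for Gm21188, and no other library passes 0.26 TPM.

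The promoters of these genes were searched for letters that C/EBP proteins are known to bind. The sequences of 4 of the label genes are shown because they carry TTGCNNAA, a relaxed form of the C/EBP site, which was searched on both strands in the window from 250 bases before to 50 bases after the RefSeq start (build GRCm38.p6), and capitals mark each match.
Retnla (chr16:48842359-48842658, plus strand): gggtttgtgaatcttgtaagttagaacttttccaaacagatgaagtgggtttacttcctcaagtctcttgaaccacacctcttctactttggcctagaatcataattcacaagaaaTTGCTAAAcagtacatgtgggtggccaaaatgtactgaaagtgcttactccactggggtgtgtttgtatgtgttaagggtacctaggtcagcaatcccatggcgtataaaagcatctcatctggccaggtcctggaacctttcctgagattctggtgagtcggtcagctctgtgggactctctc
Crisp1 (chr17:40319158-40319457, minus strand): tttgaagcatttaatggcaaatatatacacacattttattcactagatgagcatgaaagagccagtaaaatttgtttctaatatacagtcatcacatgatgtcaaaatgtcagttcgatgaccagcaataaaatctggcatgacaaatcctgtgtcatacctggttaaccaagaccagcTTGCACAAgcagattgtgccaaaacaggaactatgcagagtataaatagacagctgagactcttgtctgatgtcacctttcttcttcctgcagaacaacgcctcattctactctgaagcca
Crisp3 (chr17:40242239-40242538, minus strand): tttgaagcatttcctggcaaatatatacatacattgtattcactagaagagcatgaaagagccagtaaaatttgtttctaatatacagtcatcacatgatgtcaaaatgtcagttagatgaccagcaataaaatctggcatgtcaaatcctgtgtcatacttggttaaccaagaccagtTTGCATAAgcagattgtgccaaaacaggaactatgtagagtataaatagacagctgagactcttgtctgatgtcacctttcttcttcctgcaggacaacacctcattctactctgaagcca
Lce3f (chr3:92991967-92992266, plus strand): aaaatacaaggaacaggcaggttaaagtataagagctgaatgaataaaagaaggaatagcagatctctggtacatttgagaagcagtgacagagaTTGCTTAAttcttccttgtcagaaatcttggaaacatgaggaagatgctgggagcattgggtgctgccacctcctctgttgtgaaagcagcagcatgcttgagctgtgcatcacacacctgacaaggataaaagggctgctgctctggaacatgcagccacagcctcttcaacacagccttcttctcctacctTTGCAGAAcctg

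Retnla held TTGCTAAA starting 134 bases before the start site and TATAAA 30 bases before it. Crisp1 held TTGCACAA and Crisp3 held TTGCATAA, both starting 71 bases before the start site, and both held TATAAA 31 bases before it. Compared position by position without gaps, the Crisp1 and Crisp3 windows had the same base at 287 of 300 positions (95.7%). Lce3f held TTGCTTAA 155 bases before the start and TTGCAGAA 38 bases after it, and Slfn1 held no match. A match in a window is a run of letters and was not tested as a bound site.

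Across the members such letters were found in a minority of windows. RefSeq windows were matched by symbol for 211 of 461 member symbols, and TTGCNNAA was in 48 of their 240 windows, against 3547 of all 32851 windows in the table (10.8%). Among the protein-coding members with 10 reads or more it was in 39 of 183 windows (21.3%), against 10.2% of 21262 windows of protein-coding genes. The full palindrome TTGCGCAA, which is also a TTGCNNAA match, was in 0 windows of members and in 0.183% of all windows. TATAAA, on either strand, was in 22.1% of member windows and 13.6% of all windows, a difference in letters that are not a C/EBP site. These shares are descriptions and carry no test.

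The highest members of all were a pair with provisional symbols. Gm21188 stood at 1722, 1786 and 1828 TPM in OE and Gm36079 at 1382, 1400 and 1498 TPM, and both were listed at 0 in the other 9 libraries. They lie within 25.8 kb on the minus strand of chromosome 13 (120034605 to 120052194 and 120026439 to 120027011), and they made 49.4% to 52.4% of the summed TPM of the 292 members. Their expected counts were fractional, while the sum of both was a whole number in each OE library (21150, 19924 and 19565), so their reads were divided between these 2 genes and only the pair's sum is firm. The Gm21188 window held TTGCTAAA 22 bases before the start.

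Serpinb2, plasminogen activator inhibitor type 2, is a protease inhibitor of monocytes and keratinocytes. It stood at 154, 137 and 139 TPM in OE, against 0, 0.08 and 0 TPM in GFP. The GFP group held 2 reads, and the ratio scaled to library totals was 4706, with a 95% exact interval of 1302 to 38867. The interval covers counting error only and does not allow for the rule, which chose the gene by these counts. Serpina3b, Serpina3j and Serpinb3b, other protease inhibitors of the serpin family, were members at 7.96, 3.93 and 1.13 TPM. Of 19 serpin genes silent in GFP 4 were members, and this class, like those that follow, was drawn up after the values were seen.

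A group of uncharacterised genes among the stefin A genes of chromosome 16 stood high in OE. 2010005H15Rik stood at 348, 303 and 304 TPM in OE, against 0.26, 0 and 0 TPM in GFP. Gm5416 stood at 48.5, 56.6 and 42.8 TPM in OE and Gm5483 at 17.8, 11.8 and 12.3 TPM, and both were at 0 in GFP, KO and WT. These 3, Gm4758 and BC117090 lie within 150 kb, and reads of 2010005H15Rik, Gm5483 and BC117090 were shared with relatives. Stfa1, a cysteine protease inhibitor within the same stretch that the rule leaves out, stood at 3630 TPM in OE and 0 in GFP.

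The epidermal differentiation complex of chromosome 3, a run of genes for proteins that are crosslinked into the cornified envelope of skin, held the largest cluster of members. Over 1120 kb it held 9 members: Sprr2e, Sprr2h, Sprr2j-ps, Ivl, Lce3c, Lce3d, Lce3e, Lce3f and Tchhl1. Their means in OE ran between 1.49 TPM for Ivl (involucrin) and 156 TPM for Lce3f. Sprr2j-ps stood at 107, 100 and 97.3 TPM in OE, Lce3d at 70.9, 70.4 and 78.8 TPM and Lce3e at 71.5, 73.3 and 69.8 TPM, each with 0 reads in GFP. Only Ivl, with 1 read, had any in GFP, and all 9 had 0 reads in KO and WT.

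The response within the complex was patchy, gene by gene. Of 48 protein-coding genes between the first and last member, Sprr2e and Tchhl1, 9 were members, 7 others had at least 1 TPM in OE and 32 stayed under 1 TPM. Genes outside these 2 members, such as Lor, are not in this tally. All 4 of the Lce genes that were members belong to the Lce3 group, out of 17 Lce genes silent in GFP, and 3 of 12 silent Sprr genes were members. Sprr1b, with 329 TPM in OE and 0.30 TPM in GFP, and Crct1, with 760 TPM in OE and 105 TPM in GFP, had GFP reads above the limit. Sprr1a stood at 177 TPM in OE and 524 TPM in GFP. Lce6a, Lce1f and Lce1d were also lower in OE, at 1.44, 0.947 and 0.603 TPM, against 6.93, 3.12 and 2.55 TPM in GFP. Lce1g went the other way, at 5.08 TPM in OE and 1.11 TPM in GFP. Lor, loricrin, lies 272 kb before Sprr2e and stood at 4776 TPM in OE and 0.957 TPM in GFP, above the limit by its 64 GFP counts. Of 10 keratinocyte markers Lor alone made nearly all of the sum of 4726 to 4886 TPM in OE (5.64 to 8.38 TPM in GFP), Krt14 and Krtdap were at 0 in OE, and Krt5 stood at 0.0433 TPM in OE and 2.24 TPM in GFP. Krt25, at 3.48 TPM, was the only member among 39 keratin genes silent in GFP.

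**Figure D3:**
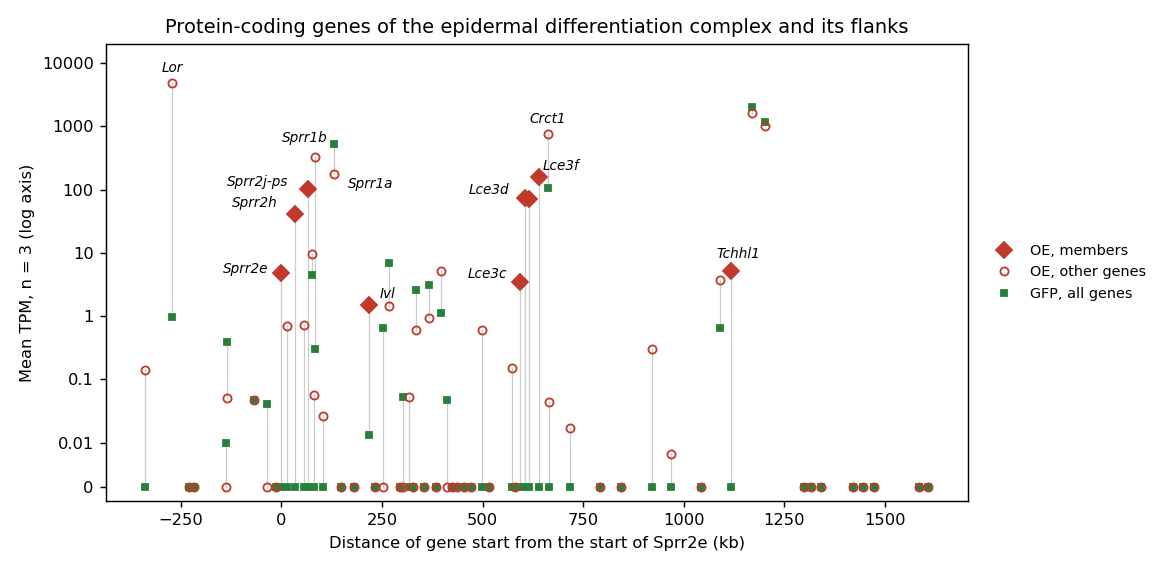
Mean TPM over 3 libraries (vertical, log axis with 0 at the foot) of protein-coding genes of the epidermal differentiation complex and its flanks. Genes between the members Sprr2e and Tchhl1 and within 500 kb of that stretch are shown, by the distance of their start from the start of Sprr2e in kb (horizontal). Diamonds are members in OE, open circles are other genes in OE, squares are all genes in GFP and grey lines join the same gene, and the members stand at 1.49 to 156 TPM in OE among other genes that range from 0 to the 4776 TPM of Lor.

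Transcription factors that pattern the embryo formed a broad class. Of 39 homeobox genes outside the Hox clusters that were silent in GFP, 11 were members, all with 10 reads or more, at a median of 2.43 TPM. Vax1, a factor of the ventral forebrain and optic nerve, stood at 25.7, 28.2 and 32.1 TPM in OE and at 0 elsewhere. Pax3, of neural crest and muscle precursors, stood at 13.3, 15.9 and 15.4 TPM, and Dlx5, of the branchial arches and bone, at 14.6, 12.6 and 15.8 TPM, both with 0 reads in the other 9 libraries. The others were Irx1, Alx1, Nkx2-9, Emx2, Nkx2-3, Dlx6, Pitx3 and Vax2, and Dlx5 and Dlx6 are neighbours on chromosome 6. The antisense gene Dlx1as stood at 13.2, 16.8 and 17.4 TPM.

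Factors of other families were members in like number. Of 39 silent Sox, Tbx, Fox, Dmrt, Prdm, Osr and Sim genes 11 were members, at a median of 2.40 TPM. Prdm8, a PR-domain factor known from neurons, stood at 35.7, 36.8 and 35.8 TPM in OE, against 0.05, 0 and 0 TPM in GFP. Osr2, a factor of palate and tooth, stood at 12.3, 11.1 and 10.9 TPM and Sox21, of neural progenitors and hair, at 6.15, 6.57 and 5.81 TPM in OE. In the Hox clusters 3 of 35 silent genes were members, Hoxd9, Hoxd8 and Hoxa9, at 2.94, 1.37 and 1.28 TPM in OE. Hoxa13, Hoxa10 and Hoxa11 lay under the limit of 1 TPM, at 0.963, 0.707 and 0.46 TPM in OE and with no read in GFP. Crabp2, which carries retinoic acid to its nuclear receptors, stood at 36.7, 37.9 and 45.0 TPM in OE, against 0.10, 0.09 and 0.16 TPM in GFP. This is a ratio of 361 with a 95% exact interval of 123 to 1752, which does not allow for the choice of the gene by these counts.

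**Figure D4:**
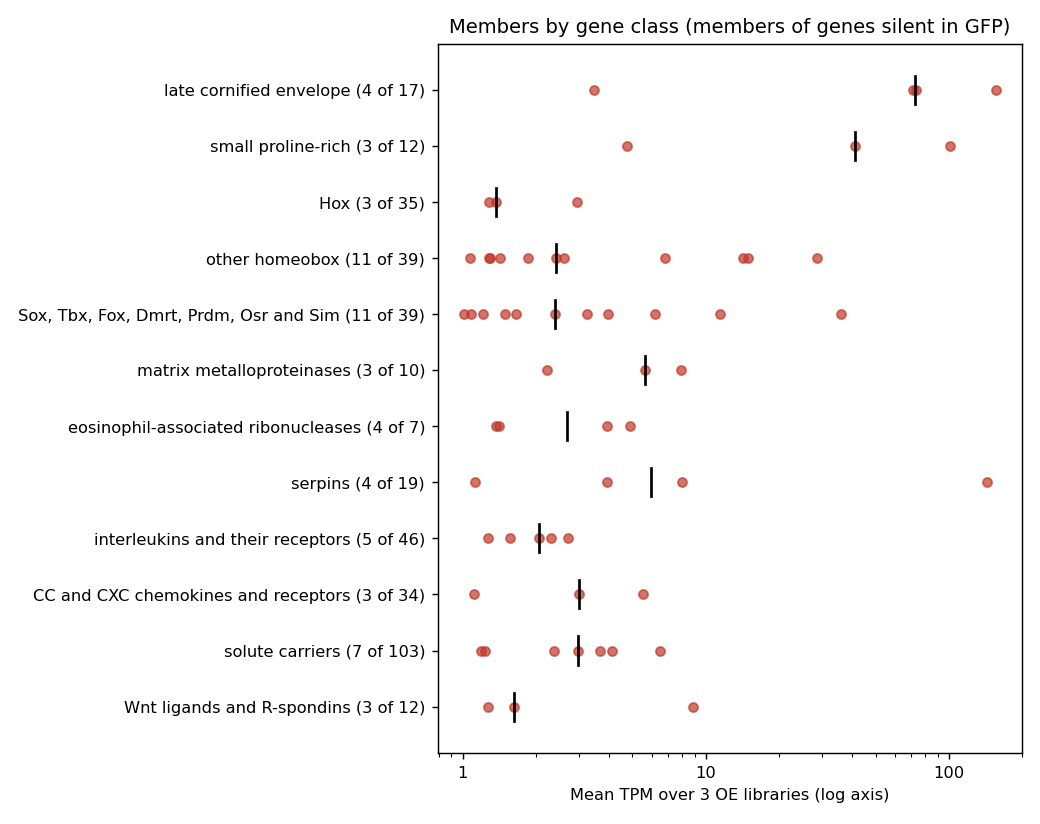
Mean TPM over the 3 OE libraries (horizontal, log axis) of members by gene class, for the 12 classes with 3 or more members (vertical), where each point is a gene, vertical bars are medians and the numbers are members out of the genes of the class silent in GFP. Late cornified envelope genes have the highest median, 72.4 TPM, and the 3 Hox members lie at 1.28 to 2.94 TPM.

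Genes of myeloid cells made up another group, drawn up after the values were seen. The eosinophil-associated ribonucleases Rnase2a, Ear2, Ear1 and Ear6 were members, 4 of the 7 genes counted in that class, all of which were silent in GFP. Of all 15 symbols with the letters Ear before the first digit, each silent in GFP, 3 were members. Rnase2a stood at 4.45, 4.37 and 5.87 TPM and Ear2 at 3.93, 4.29 and 3.59 TPM in OE, each at 0 in GFP, and Ear1 and Ear6 had under 10 reads. Epx, Prg2, Prg3 and Ccr3, which define eosinophils, were listed at 0 in all OE and GFP libraries. Chil3, a chitinase-like protein that with Retnla marks alternatively activated macrophages, stood at 1.11, 0.67 and 1.67 TPM in OE. On the list of eosinophil and alternatively activated macrophage genes 5 of 12 were members, while Arg1, also a urea cycle enzyme of hepatocytes, stood at 44.7 TPM in OE and 99.9 TPM in GFP and Mrc1 at 0.32 TPM in OE and 0.207 TPM in GFP.

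Other members known from leukocytes, named here with their values known, were proteases, receptors and cytokines. Mmp8, Mmp10 and Mmp12, the neutrophil collagenase, stromelysin 2 and macrophage elastase, lie within 224 kb on chromosome 9 with 7.89, 5.64 and 2.23 TPM in OE, while Mmp3 between them stood at 0.0167 TPM in OE and 0.03 TPM in GFP. Gpr84, a fatty acid receptor of myeloid cells, stood at 8.80, 8.30 and 8.94 TPM, the chemokine receptor Ccr1 at 5.77, 5.10 and 5.66 TPM, and Ffar2, a receptor for short-chain fatty acids, at 4.45, 4.27 and 4.76 TPM. Ccr1 was 1 of 3 members among 34 CC and CXC chemokine and receptor genes silent in GFP. Gfi1, a repressor that acts in granulocyte formation, stood at 3.61, 3.09 and 3.83 TPM. The cytokine genes Il12b and Il6 stood at 2.06 and 1.56 TPM and were 2 of 5 members among 46 interleukin and interleukin receptor genes silent in GFP.

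Markers of leukocytes were measured beside these genes. The 8 general leukocyte markers summed to 1.14 to 2.41 TPM in OE and 1.02 to 2.25 TPM in GFP. The 12 macrophage and Kupffer cell markers summed to 189 to 208 TPM in OE and 174 to 197 TPM in GFP, of which Cd68, also a lysosomal gene of other cells, made 195 and 185 TPM on average, while Adgre1 stood at 0.0833 TPM in OE and was listed at 0 in GFP. Each of the other 11 had a higher mean in OE than in GFP at low levels, such as Csf1r at 0.82 and 0.12 TPM, C1qa at 0.81 and 0.227 TPM and Marco at 0.17 and 0 TPM. Clec4f and Timd4 each had 1 count in OE and 0 in GFP, and Lyz2 had 22 and 18. Without Cd68 the sum was 3.42 to 4.16 TPM in OE and 1.00 to 1.65 TPM in GFP. In KO it was 12.2 to 37.8 TPM and in WT 3.06 to 21.4 TPM. None of these 12 is a member. The 10 neutrophil markers summed to 3130 to 3613 TPM in OE and 0.26 to 1.22 TPM in GFP. S100a8 and S100a9, which the rule leaves out by symbol, made most of this, at means of 1359 and 2017 TPM in OE. Ngp and Ltf stood at 45.0 and 9.83 TPM in OE. Camp, Retnlg, Elane and Csf3r stood at 0.57, 0.127, 0.107 and 0.01 TPM in OE, and Mpo and Ly6g were listed at 0. The part of other cell types in the members' levels was not tested.

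Some large families of genes silent in GFP gave few members. Of 1120 protein-coding olfactory receptor genes silent in GFP 0 were members, and of 324 vomeronasal receptor genes 2 were, Vmn1r225 and Vmn2r2. Among 39 beta-defensins 1 was a member, Defb3, an antimicrobial peptide, at 18.9, 25.3 and 11.4 TPM from 69 reads. Over all genes, 1.24% of the 37345 silent in GFP were members, and 3.09% of the 7482 that are protein-coding. Against these shares the late cornified envelope genes (23.5%) and the homeobox families named above (28.2%) held more members. The Hox genes stood at 8.57%, and the beta-defensins (2.56%) and keratins (2.56%) held about as many as protein-coding genes at large. These shares describe classes chosen for their members.

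Members often lay near each other, which is given without a test. Another member started within 500 kb for 173 of 462 members (37.4%), in 74 clusters of 2 to 9, against 23.5% of the 13455 other genes at 1 TPM or more in OE that had a member within that distance. Among protein-coding genes these shares were 41.1% and 23.5%. Of the 74 clusters 14 held 3 or more members. Besides those already named, Slfn1, 1700020L24Rik and Wfdc17 lie within 589 kb of chromosome 11. Several other clusters are of read-poor short RNA genes, such as n-R5s106, n-R5s118, n-R5s130 and Gm24312 beside Dbndd1 on chromosome 8.

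The opposite pattern was rarer. Genes with at most 3 counts over the OE libraries and at least 1 TPM in GFP numbered 247, of which 64 had a mean of 10 reads or more, against 462 and 292 in the direction described here. Protein-coding genes with 10 reads or more numbered 35 in that direction, against 217. The mirror set was counted without leaving out symbols, and the OE and GFP libraries had like totals.

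In KO and WT hepatocytes 399 of 462 members were silent (86.4%), beside 98.0% of all genes silent in GFP and 72.0% of all genes. A member was called silent in KO and WT at a sum of at most 6 counts over the 6 libraries, present at a mean of 1 TPM or more over them, and a trace in between. By these limits 48 members were traces and 15 were present, and 283 had 0 reads in all 6 libraries. Among the 292 members with 10 reads or more 248 were silent, 40 traces and 4 present, and the same number, 211, had 0 reads in KO as in WT. The share of all genes at 0 reads in each group was not computed, and nothing about Cebpa is read from that count.

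The 4 present members were Car1, Gm19522, Ctcflos and Wfdc17. Car1, a carbonic anhydrase, stood at 1.66, 2.39 and 3.59 TPM in OE and 0 in GFP, and at 4.23, 3.85 and 3.98 TPM in KO, against 7.34, 7.52 and 4.18 TPM in WT. Gm19522, antisense to Zbtb20, stood at 5.81, 3.87 and 4.05 TPM in KO, against 5.53, 6.63 and 5.08 TPM in WT, with 2.11, 2.77 and 2.31 TPM in OE and at most 0.06 TPM in GFP. The low level in GFP is set by the rule. For Car1, Gm19522 and Ctcflos the level in OE did not reach that in WT. Wfdc17, a small secreted protein with a whey acidic protein domain, stood at 3.11, 2.29 and 0.48 TPM in KO, against 0.18, 0.49 and 1.2 TPM in WT, and the groups overlapped.

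Only 12 members had enough reads to be tested between KO and WT, and 1 was called. Adamtsl1, a secreted matrix protein, stood at 0.64, 1.26 and 0.59 TPM in KO, against 0, 0.15 and 0 TPM in WT, from 64 and 3 summed counts. It was higher in 3 of 3 KO libraries than in any WT library (log2 fold change 4.34 ± 0.78, SE, edgeR quasi-likelihood test, adjusted p = 0.0480), where 0.692% of 11846 genes tested were called higher and 1.02% lower. The call ended in limma, with a replicate block and without any 1 of the 6 libraries, and adjusted p values over the alternatives ran from 0.000855 to 0.189. In OE, where Cebpa was raised, Adamtsl1 also stood high, at 5.51, 5.25 and 4.32 TPM against 0 in GFP.

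The edgeR fit of the 6 KO and WT libraries called 0 members lower in KO. At an unadjusted p under 0.05 stood 4 of the 12 members tested, Adamtsl1 as higher in KO and Ctcflos, Slc22a3 and Car1 as lower, against 13.9% of all genes tested. Ctcflos was called lower in DESeq2, in both limma fits and in edgeR without the filter on low counts, and Ctcflos and Slc2a4 were called lower in the edgeR fit of all 12 libraries. Ctcflos, a long non-coding gene, stood at 1.47, 0.63 and 1.09 TPM in KO, against 4.35, 5.28 and 4.62 TPM in WT, with no overlap (log2 fold change −1.79 ± 0.35, SE, edgeR adjusted p = 0.0658), and passed in 5 of 14 alternatives, with adjusted p values of 0.000349 to 0.246. In OE it stood at 1.82, 1.14 and 0.69 TPM, against 0, 0.07 and 0.07 TPM in GFP. Slc22a3, an organic cation transporter, stood at 0.06, 0.08 and 0.14 TPM in KO, against 0.65, 0.19 and 0.38 TPM in WT (log2 fold change −1.87 ± 0.58, edgeR adjusted p = 0.218). Slc2a4, the insulin-responsive glucose transporter GLUT4, stood at 0.13, 0.30 and 0.02 TPM in KO, against 0.59, 0.34 and 0.13 TPM in WT, from 5 reads in KO and 23 in WT, and the groups overlapped (log2 fold change −2.09 ± 0.56, adjusted p = 0.0444 in the edgeR fit of all 12 libraries). Car1 had a log2 fold change of −0.63 ± 0.26 (edgeR adjusted p = 0.344). Over the 12 members tested the median log2 fold change was −0.27, against 0.01 over all genes tested. These 12 include Gm32281, Gm44096, Gm13194 and Gm45299, which had a mean of under 10 reads in OE. The difference in medians was not tested, and nothing is read from it.

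**Figure D5:**
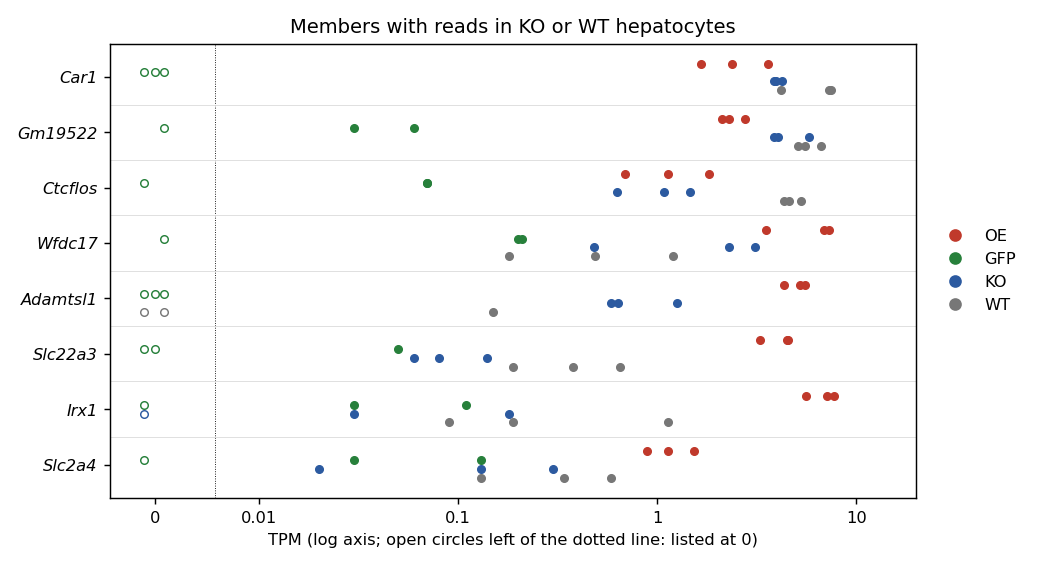
Level in TPM (horizontal, log axis) of 8 members with reads in KO or WT (vertical), where each point is 1 library of OE, GFP, KO or WT (3 each) and open circles stand for libraries listed at 0. The low levels in GFP are set by the rule. Ctcflos is lower in KO (0.63 to 1.47 TPM) than in WT (4.35 to 5.28 TPM). Irx1 and Slc2a4, which were added with their values known, overlap between KO and WT.

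Many genes lay close to either limit of the rule. Nod2, a sensor of bacterial cell wall, lay just inside the OE limit with 0.71, 1.00 and 1.29 TPM, while Gm6209 lay just outside it at 0.997 TPM. Crabp2 lay just inside the GFP limit with 3 counts, as did 49 members in all, and 50 genes at 1 TPM or more in OE held over 3 and up to 4 GFP counts. Between 1 and 1.1 TPM there were 47 members, and between 0.9 and 1 TPM there were 41 genes that otherwise met the rule.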

How the data were processed

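RNA was made into stranded poly(A) libraries (TruSeq). The submitters' processing notes name Trimmomatic 0.36, STAR 2.5.1, RSEM 1.2.22, Picard 1.84, DESeq2 and the mouse build mm10, without roles. The authors deposited RSEM expected counts of each gene, estimated reads without scaling to depth, and the deposited TPM, which is scaled for gene length and depth and therefore depends on the other genes of a library. Very short genes reach high TPM from part of a read. All 55450 identifiers were found in GENCODE M21, the source of coordinates and gene types. Strand settings of the counting are not given in the sources used here, so overlapping and antisense genes are uncertain.

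Members, classes and lists were chosen with earlier results of these data known. Expected counts were rounded, filtered by filterByExpr and tested with edgeR 4.0.16 (TMM, quasi-likelihood F test, Benjamini-Hochberg adjustment over all genes tested, call under 0.05), each contrast on its own 6 libraries, with DESeq2 1.42.0 and limma 3.58.1 as alternatives (R 4.3.3). Folds against 0 used 3 counts over the group as a floor, and ratios with 1 to 3 GFP counts have exact 95% intervals; both use library totals, and reads are not independent molecules, so they cover counting error only. Neither the folds nor the intervals allow for the choice of members by these same counts. A count was taken as whole within 0.01. The fitting code was tested on simulated data. Named genes were the genes in the label, the highest in OE, those highest or called in KO and WT, the leaders of each cluster of 3 or more and those beside the limits; all others were chosen after their values were seen. RefSeq promoter windows were searched by symbol, 1 or more windows a gene.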

Additional observations from a re-analysis of the deposited data

How the results depend on the processing

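The number of members follows its limits. It was 225 with a GFP summed count of 0, 763 with one of at most 10, 805 at 0.5 TPM or more in OE, 256 at 2 TPM or more and 292 with a mean of 10 reads, against 462. Without 1 OE library it was 441 to 462. Without 1 GFP library, and with the GFP limit lowered to a sum of 2, it was 482 to 494. With silence in KO and WT set at 0 counts, 146 members were traces and 33 present, and 24 were present from 0.5 TPM. With 100 kb between starts there were 40 clusters holding 91 members.

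In KO against WT, members called higher numbered 0 in limma on log2(TPM + 1) and log2(TPM + 0.1), with a replicate block and without each library. The stricter filter also gave 0, but it left only 4 members to test and removed Adamtsl1 beforehand. Members called lower numbered 1 in DESeq2, with no filter and in both limma fits, and 2 in a fit of all 12 libraries. Leaving out 1 library gave 0 in either direction. All genes called higher and lower numbered 283 and 342 in DESeq2, 132 and 192 with no filter, 587 and 618 in the fit of all 12 libraries, and 15 to 207 and 27 to 189 without 1 library, and 38 and 43 were called higher in limma. In OE against GFP each alternative stayed within 1.5 times the counts of calls.

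Same-numbered libraries did not deviate together (correlations of −0.37 to 0.05, against −0.25 to 0.24 for other pairs). With 3 libraries in each group this cannot exclude that the numbers pair them. With the replicate block 31 genes were called higher and 56 lower in KO against WT, and no member.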
